A study of Populus tremula x Populus tremuloides with 12 samples.

Results

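In leaves of hybrid poplar, 114 of the 33975 listed genes were strongly lowered where the transcription factor MYB165 was overexpressed, and those 114 genes are described here. They were chosen by their measured levels in the same 12 libraries, so the lower level of the 114 in the overexpressing plants is a description and is not tested as such. The level used was CPM (counts per 1000000 gene counts, after scaling between libraries), and differences were taken on log2(CPM + 0.5). Of the 20320 genes with a mean of at least 2 CPM in at least 1 group, 647 had every overexpressing library below every wild-type library in both growth conditions. Of these, 371 had a difference of -0.5 or less in each condition, and the 114 had a mean of both differences of -2 or less. A second set of 257 genes meets every other criterion but that on the mean, and is used for comparison.

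The plants were hybrids of Populus tremula and Populus tremuloides, and came out of tissue culture for 1 month in a mist chamber and then 2 months in a greenhouse. The overexpressing plants (OE) derived from leaves of the clone INRA 353-38, into which Agrobacterium tumefaciens GV3101::pMP90 had brought MYB165 in the binary vector pMDC32, a vector with a strong viral promoter that is active in most plant tissues. Wild-type plants (WT) are the comparison. For OE sunlight and WT sunlight, 3 plants each spent 1 further week outdoors, while OE greenhouse and WT greenhouse, also 3 plants each, did not. Leaves at plastochron positions 7 to 10 were sampled from all groups. How many independent transgenic lines the OE plants represent is not stated. Sunlight plants were also 1 week older and at another site, so "sunlight" names that whole difference, and its parts cannot be told apart.

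MYB proteins are DNA-binding transcription factors, and in plants some of them activate and others repress the genes of phenylpropanoid metabolism. MYB165 belongs to the repressor type in poplar. The phenylpropanoid pathway starts from phenylalanine and supplies lignin, hydroxycinnamic esters, flavonols, anthocyanins and condensed tannins, the last being abundant in poplar leaves and known to rise with light exposure. Repressor MYBs of this type act together with basic helix-loop-helix partners that activator MYBs also use. The files give gene IDs without names or descriptions, so no role can be attached to a single gene below, and MYB165 itself and leaf marker genes were not analysed here.

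Depth was lowest in OE sunlight 2, with 5870132 gene counts, and highest in OE sunlight 6, with 27711999. The share of reads outside annotated genes was 32.2% in WT greenhouse 5, 16.4% in WT greenhouse 3 and 13.1% in OE sunlight 2, and between 6.85% and 8.47% in the other 9 libraries. OE greenhouse 3 differed most from its own replicates, and results that changed when it and WT greenhouse 5 were left out are given with and without them. Where a gene has no count, up to 3 may have been missed, equal to 0.479 CPM in OE sunlight 2 and 0.103 CPM in OE sunlight 6, and this covers counting error only. Nothing in the labels says more of the replicates than that they are separate plants.

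The 114 genes together made up between 0.0495% and 0.147% of a library's gene counts in OE leaves, against between 0.697% and 2.14% in WT leaves. Their summed level was 1375, 817 and 1274 CPM in the OE sunlight libraries, against 15494, 20073 and 10218 CPM in the WT sunlight libraries. In the greenhouse it was 586, 515 and 474 CPM in OE, against 15115, 7412 and 16459 CPM in WT. The summed OE level was thus 7.57% of the WT level in sunlight and 4.04% in the greenhouse. By group the sums were 1155 ± 297 CPM in OE sunlight and 15262 ± 4932 in WT sunlight, and 525 ± 56.7 CPM in OE greenhouse and 12995 ± 4881 in WT greenhouse (SD, n = 3 each). In these bulk samples, fewer cells of a type and less RNA per cell cannot be told apart.

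**Figure D1:**
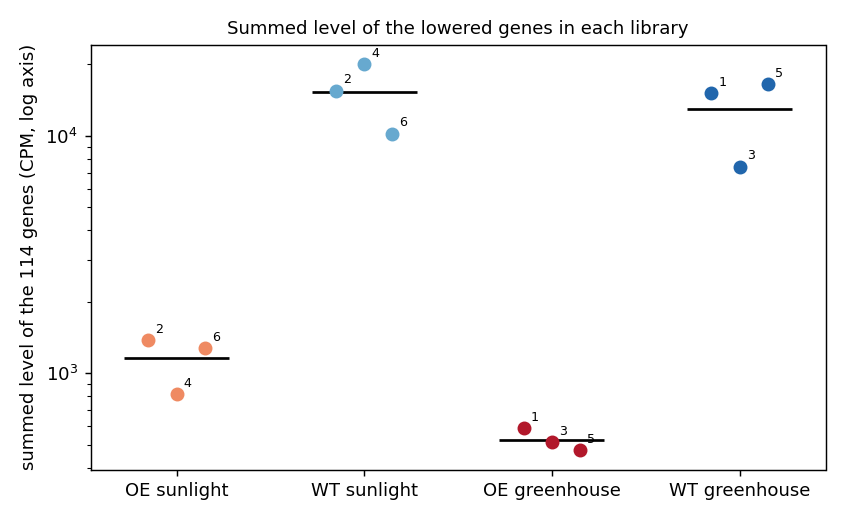
Summed level of the 114 genes in each library (CPM, log axis). Points are single libraries marked with their replicate number and bars are group means. The OE sums lie between 474 and 1375 CPM, all below the lowest WT sum of 7412 CPM.

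A large part of the sum lay in few genes. The 10 genes below were picked by their WT level, so their shares do not compare how concentrated the sums were in OE and WT. The 10 genes most abundant in WT held 57.6% ± 4.34 of the sum in OE sunlight and 57.6% ± 6.51 in WT sunlight, and 46.3% ± 2.29 in OE greenhouse and 64.8% ± 4.07 in WT greenhouse (SD, n = 3 each). Without them the other 104 genes still summed to 482 ± 84.8 CPM in OE sunlight and 6306 ± 1541 in WT sunlight, and to 281 ± 21.7 in OE greenhouse and 4442 ± 1320 in WT greenhouse (SD, n = 3 each). Single genes ranged widely in level. Group means ran from 0 to 143 CPM in OE sunlight with a median of 2.2, against 1.82 to 2126 CPM in WT sunlight with a median of 32.7. They ran from 0 to 103 CPM in OE greenhouse with a median of 1.03, against 1.75 to 1999 CPM in WT greenhouse with a median of 21.9.

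Most of the 114 genes were left with a small fraction of their WT level. The median OE level was 7.31% of WT in sunlight and 4.59% in the greenhouse, also with the genes at 0 counts set to the level that 3 counts over the group allow. In both conditions 64 genes lay under 10% of WT, and 105 lay under 25%. A mean under 1 CPM was left for 36 genes in OE sunlight and for 57 in OE greenhouse. The highest remaining levels relative to WT were 28.7% in sunlight and 40.7% in the greenhouse. On the log2 scale the differences, OE minus WT, ran from -6.06 to -1.52 in sunlight with a median of -3.07, and from -6.81 to -1.26 in the greenhouse with a median of -3.35. Over all 20320 eligible genes the medians were -0.00 and 0.01. The choice of genes fixes this direction and much of this size.

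**Figure D2:**
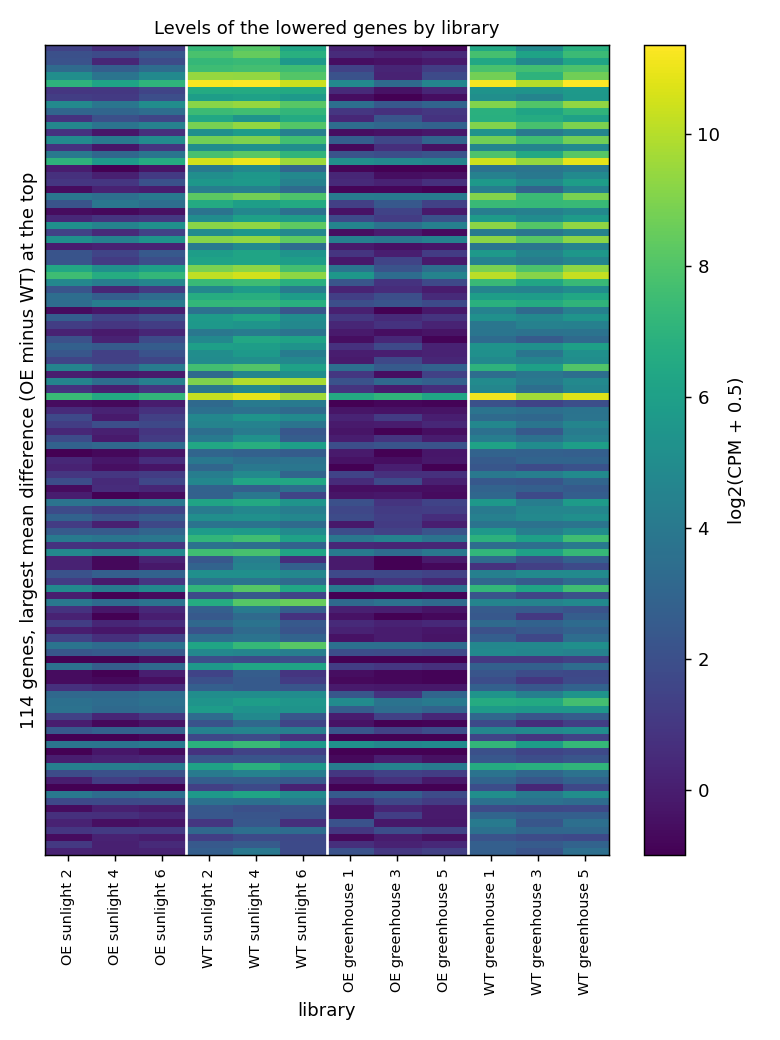
Level of each of the 114 genes (rows, ordered by mean difference between OE and WT) in each of the 12 libraries (columns), as log2(CPM + 0.5). The OE columns are darker than the WT columns of the same condition in every row, as the choice of genes requires, and WT greenhouse 3 and WT sunlight 6 are darker than their replicates in most rows.

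The largest mean difference was that of Potra002126g16486, at -6.23. It had 2.23, 0.983 and 1.93 CPM in OE sunlight, against 151, 264 and 73.2 CPM in WT sunlight, and 0.629, 0.178 and 0.0955 CPM in OE greenhouse, against 84.9, 27.5 and 111 CPM in WT greenhouse. Its lowest WT library was thus still far above its highest OE library. Potra183027g28275, with a mean difference of -6.18, had 3.51, 2.95 and 4.55 CPM in OE sunlight, against 229, 351 and 112 CPM in WT sunlight. In the greenhouse the same gene had 0.944, 0.623 and 0.907 CPM in OE, against 208, 71.2 and 174 CPM in WT. Potra000477g02908 followed at -5.74, with 3.83, 0.764 and 3.1 CPM in OE sunlight against 152, 166 and 50.6 CPM in WT sunlight, and 0.189, 0.267 and 0.43 CPM in OE greenhouse against 85.1, 26.6 and 74.5 CPM in WT greenhouse. In these 3 genes the WT libraries of a group differed from each other severalfold, and WT sunlight 6 and WT greenhouse 3 were the lowest in each of them.

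Potra001309g11258 and Potra000971g08018, with mean differences of -5.64 and -5.36, were far steadier in WT. Potra001309g11258 had 9.26, 5.9 and 9.9 CPM in OE sunlight, against 187, 202 and 184 CPM in WT sunlight, and 2.2, 0.712 and 1.86 CPM in OE greenhouse, against 224, 199 and 242 CPM in WT greenhouse. Its OE level was 4.37% of WT in sunlight and 0.718% in the greenhouse. Potra000971g08018 had 1.44, 1.53 and 2.41 CPM in OE sunlight, against 92.6, 94.1 and 90.8 CPM in WT sunlight, and 0.881, 0.267 and 0.764 CPM in OE greenhouse, against 40.9, 40.7 and 52.1 CPM in WT greenhouse. Its differences of -5.37 in sunlight and -5.34 in the greenhouse were nearly equal. The other genes among the 10 largest were Potra000863g06975 (-5.58), Potra002448g18542 (-5.42), Potra188671g28625 (-5.12), Potra002542g19139 (-5.07) and Potra162262g27003 (-5.03), each value a mean log2 difference. Of these, Potra188671g28625 came closest to absence in OE, with 1.91, 1.64 and 3.45 CPM in OE sunlight against 57.9, 67.8 and 50.5 CPM in WT sunlight, and 0.189, 0 and 0.191 CPM in OE greenhouse against 34.6, 23.7 and 48.2 CPM in WT greenhouse.

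A few genes fell to at most 3 counts over a group. In OE sunlight this held for Potra004522g32670, with 0 counts against 91 in WT sunlight, and for Potra002559g19291, with 3 counts against 118. In OE greenhouse 4 genes had 0 counts over the 3 libraries, namely Potra000410g32549, Potra002559g19291, Potra004522g32670 and Potra006864g25844, against 56, 63, 73 and 90 counts over the WT greenhouse libraries. They were at least 28.9-, 32.5-, 37.7- and 46.4-fold lower there, taking the 3 counts per group that a count of 0 allows. With 1 count in OE greenhouse and 445 in WT greenhouse, Potra006413g25676 had a WT over OE count ratio of 689 (exact 95% counting interval 123 to 27263). For Potra004359g24848 the counts were 2 and 528, a ratio of 409 (interval 113 to 3383). Potra169636g27458 had 1 and 105 counts, a ratio of 163 (interval 28.5 to 6479), and Potra001028g08625 had 2 and 100, a ratio of 77.4 (interval 20.9 to 648). These genes were named for their low counts after their values were seen.

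Of the 8 genes most abundant in WT, Potra002448g18542 and Potra002542g19139 were also among the 10 largest mean differences. The genes were split by mean level over the 12 libraries into 3 sets of 38. In the greenhouse the median OE level was 3.12% of WT in the high set, 4.68% in the middle set and 5.14% in the low set. In sunlight it was 6.9%, 6.48% and 8.09%. Potra002448g18542 had 127, 72.1 and 132 CPM in OE sunlight, against 2404, 2627 and 1346 CPM in WT sunlight, and 29, 9.34 and 24.5 CPM in OE greenhouse, against 2320, 1027 and 2648 CPM in WT greenhouse. Its OE level was 5.18% of WT in sunlight and 1.05% in the greenhouse. Potra007760g26019 had 167, 89.8 and 142 CPM in OE sunlight, against 1262, 1940 and 771 CPM in WT sunlight, and 94.4, 138 and 76.5 CPM in OE greenhouse, against 2256, 805 and 1750 CPM in WT greenhouse. That left 10% of WT in sunlight and 6.41% in the greenhouse, so it had the highest mean over the 6 OE libraries, although Potra002448g18542 was higher in WT. Potra002140g16581 had 129, 50.4 and 96.6 CPM in OE sunlight, against 1548, 2097 and 745 CPM in WT sunlight, and 33.8, 27 and 23 CPM in OE greenhouse, against 1434, 681 and 1934 CPM in WT greenhouse. Potra000854g06913 had 183, 100 and 147 CPM in OE sunlight, against 1162, 1461 and 622 CPM in WT sunlight, and 46.6, 9.88 and 22.5 CPM in OE greenhouse, against 1074, 555 and 1250 CPM in WT greenhouse. These 4 genes also had the 4 highest means over the OE libraries, and in each of them OE sunlight 4 was the lowest of the OE sunlight libraries.

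The next 4 genes by WT level lay in a narrow band. Potra003463g21747 and Potra001344g11545 had nearly the same levels in each library: 36.7, 22.4 and 36.6 CPM in OE sunlight for Potra003463g21747 and 36.2, 21.3 and 40.7 for Potra001344g11545, against 579, 643 and 315 and 552, 653 and 316 CPM in WT sunlight. In the greenhouse they had 23.7, 11.7 and 20.7 CPM and 20, 15.2 and 21.7 CPM in OE, against 605, 269 and 640 and 593, 283 and 597 CPM in WT. Potra002542g19139 had 28.1, 14.2 and 32.8 CPM in OE sunlight, against 576, 683 and 283 CPM in WT sunlight, and 10.9, 4.8 and 7.49 CPM in OE greenhouse, against 523, 260 and 644 CPM in WT greenhouse. Potra000729g05728 kept the largest part of its WT level in sunlight among these 8 genes, 14.3%, and 2.11% in the greenhouse. Its levels were 83.8, 36.7 and 63.2 CPM in OE sunlight, against 474, 610 and 202 CPM in WT sunlight, and 13.5, 4 and 10.5 CPM in OE greenhouse, against 465, 236 and 625 CPM in WT greenhouse.

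**Figure D3:**
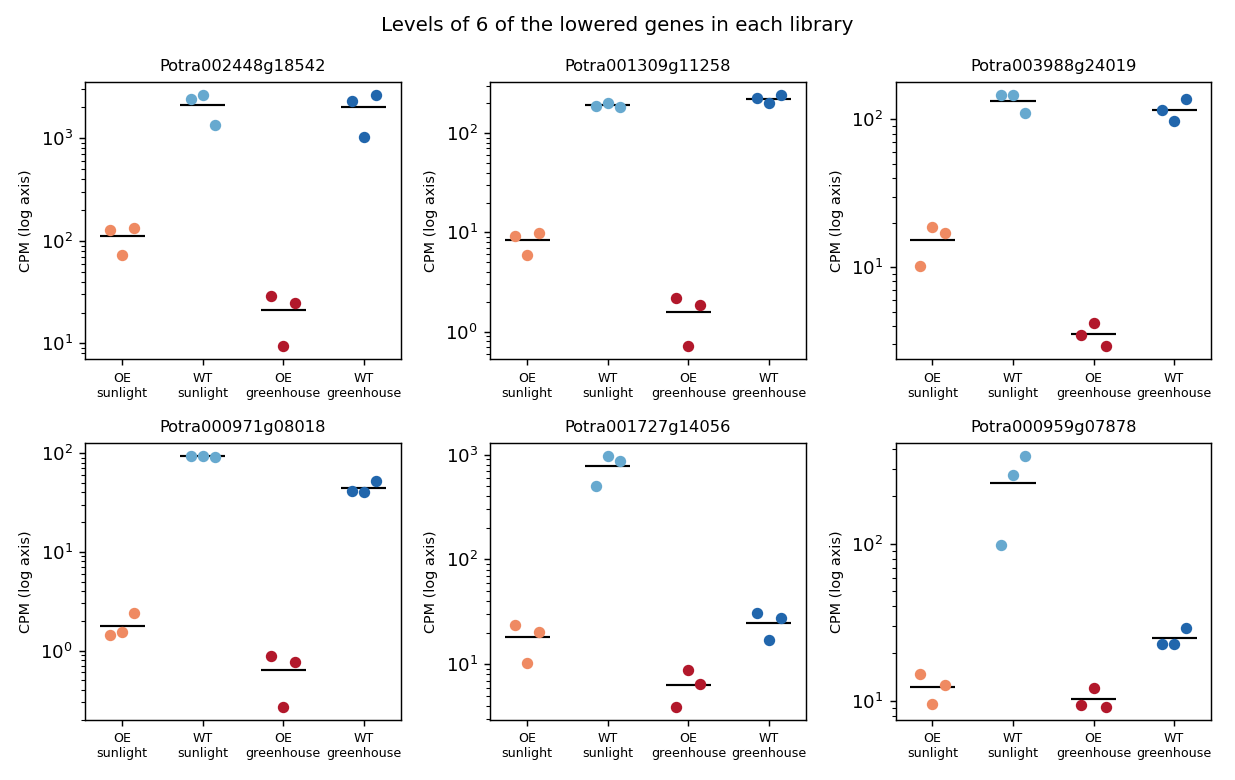
Level of 6 of the genes in each library (CPM, log axis, with its own range for each gene). Points are libraries and bars are group means. In Potra002448g18542, Potra001309g11258, Potra003988g24019 and Potra000971g08018 the OE sunlight points lie above the OE greenhouse points, and in Potra001727g14056 and Potra000959g07878 the WT sunlight points lie far above the WT greenhouse points.

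The change in sunlight within a genotype was not itself a criterion, but the levels it compares were used to choose the genes. It was tested gene by gene, and counts over the 114 set beside those of all tested genes are a description. In OE leaves 21 of the 114 genes rose in sunlight and none fell, by limma with Benjamini-Hochberg adjusted p under 0.05 over the 22959 genes tested, all 114 among them. Over all tested genes 2.92% rose and 1.98% fell in OE. At an unadjusted p under 0.05, 52 of the 114 were higher, where 12.3% of all tested genes were, and 1 was lower, where 12% were. That 1 was Potra007341g25939, named after its values were seen. All 3 OE sunlight libraries lay above all 3 OE greenhouse libraries for 49 of the 114, where 13.8% of all tested genes did so, and below them for 5, where 14.3% did. The fitted log2 change was positive for 100 of the 114, with a median of 1.27, against -0.01 over all tested genes and 0.20 over the 257 less strongly lowered genes. Of the 114, 35 had too few counts in the OE libraries to pass the filter there and passed it through their WT level, so their fitted changes in OE rest on few counts or none. Among the other 79, taken alone after the data were seen, 20 rose and none fell, and 71 were positive with a median of 1.23. Of the 257 genes, 17 rose and 9 fell in OE. Potra007341g25939 had 13.2, 12.9 and 16.2 CPM in OE sunlight and 36.1, 25.2 and 29.9 CPM in OE greenhouse, a log2 change of -1.07 that did not pass (limma adjusted p = 0.162).

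The count of 21 depended on single libraries. It was 12 without OE greenhouse 1, 12 without OE greenhouse 3, 10 without OE greenhouse 5, 11 without OE sunlight 2, 8 without OE sunlight 4 and 4 without OE sunlight 6. Without both OE greenhouse 3 and WT greenhouse 5 it was 12, with a median of 1.30. Fitting just the 6 OE libraries also gave 4, of 79 genes with enough counts there. The median of 1.27 stayed between 1.03 and 1.46 when any 1 of the 12 libraries was left out.

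The 21 genes that rose in OE changed between 2.35-fold and 19.2-fold. The highest value was that of Potra188671g28625, a log2 change of 4.26 ± 0.90 (SE). That gene had 7 counts over the OE greenhouse libraries, so the size of its change is uncertain. Potra003988g24019 had the smallest adjusted p, 0.00417, with 10.2, 18.7 and 17.1 CPM in OE sunlight and 3.46, 4.18 and 2.91 CPM in OE greenhouse, a log2 change of 2.18 ± 0.26 (SE). Its WT levels were 145, 146 and 110 CPM in sunlight and 115, 97.7 and 136 CPM in the greenhouse, which overlap, and the WT change of 0.22 ± 0.21 (SE) did not pass (limma adjusted p = 0.644). Potra162262g27003 had 7.82, 7.64 and 10.3 CPM in OE sunlight and 1.45, 1.16 and 1.48 CPM in OE greenhouse, a log2 change of 2.66 ± 0.35 (SE, limma adjusted p = 0.00531). Its WT levels were 173, 191 and 143 CPM in sunlight and 114, 74.5 and 135 CPM in the greenhouse. Potra001309g11258, changed by 2.42 ± 0.33 in OE (SE, limma adjusted p = 0.00531) and by -0.21 ± 0.21 in WT (SE, limma adjusted p = 0.665), and its OE call was lost when just the OE libraries were fitted (adjusted p = 0.0567). Potra001370g11722 had 27, 18.2 and 25.4 CPM in OE sunlight and 4.22, 1.25 and 2.82 CPM in OE greenhouse, a log2 change of 3.13 ± 0.44 (SE, limma adjusted p = 0.00619). In WT that gene had 165, 183 and 111 CPM in sunlight and 166, 80.6 and 167 CPM in the greenhouse. In all 4 genes the OE libraries of both conditions stayed below every WT library.

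In WT leaves 11 of the 114 genes rose in sunlight and none fell by the same test, where 0.636% of all tested genes rose and 0.767% fell. A rise in WT deepens the difference in sunlight that the rule used, so the excess over all tested genes is partly built in. Each gene that rose had its greater fall in sunlight, as Potra000959g07878 at -4.09 against -1.26 in the greenhouse. Of the 114, 81 had the greater fall in the greenhouse. At an unadjusted p under 0.05, 23 were higher, where 7.6% of all tested genes were, and 8 were lower, where 8.85% were. The WT sunlight libraries lay above all WT greenhouse libraries for 22 of the 114, where 13.3% of all tested genes did so, and below them for 6, where 11.7% did. The median log2 change in WT was 0.17, against 0.00 over all tested genes, and it was -0.08 without WT greenhouse 3 and 0.46 without WT sunlight 6. The count of 11 was 7, 3 and 5 without WT greenhouse 1, 3 and 5, and 7 without WT sunlight 2. Fitting just the 6 WT libraries gave 6 that rose and 1 that fell, Potra002442g18517. Without WT sunlight 4 the 1 that fell was Potra001383g11793, and without OE greenhouse 1 or OE greenhouse 3 it was Potra001478g12372. Scaling by library totals gave 18 that rose, with the median of all tested genes at 0.23.

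The strongest response in WT was that of Potra001727g14056. In OE it had 23.5, 10.4 and 20.5 CPM in sunlight and 3.9, 8.81 and 6.49 CPM in the greenhouse, a log2 change of 1.52 ± 0.39 (SE) that missed the threshold (limma adjusted p = 0.0505). In WT the same gene had 498, 976 and 872 CPM in sunlight and 30.8, 16.9 and 27.4 CPM in the greenhouse, a change of 4.94 ± 0.38 (SE, limma adjusted p = 0.00072). Its OE level was therefore 2.32% of WT in sunlight and 25.5% in the greenhouse. Potra000959g07878 had overlapping levels in OE, with 14.8, 9.5 and 12.5 CPM in sunlight and 9.32, 12.1 and 9.07 CPM in the greenhouse. In WT it had 98.7, 273 and 364 CPM in sunlight and 23.1, 22.9 and 29 CPM in the greenhouse, a log2 change of 3.08 ± 0.37 (SE, limma adjusted p = 0.00539). The OE levels of Potra001988g15626 also overlapped, at 12.9, 9.5 and 13 CPM in sunlight and 11.2, 11 and 9.55 CPM in the greenhouse. Its WT levels were 77, 149 and 281 CPM in sunlight and 25.7, 26.6 and 35.4 CPM in the greenhouse, a log2 change of 2.32 ± 0.34 (SE, limma adjusted p = 0.0142). The call of Potra001988g15626 in WT was lost without WT greenhouse 3 (adjusted p = 0.0604) and when just the WT libraries were fitted (adjusted p = 0.067).

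Both genotypes rose in sunlight for 3 of the genes, while 18 were called in OE and not in WT, 8 in WT and not in OE, and 85 in neither. Over all tested genes 2.92% rose in OE and 0.636% in WT. The share of all tested genes that rose in both was not counted, so these 4 numbers are a description. Of the 3, Potra000586g04376 had 11.8, 5.68 and 9.25 CPM in OE sunlight and 1.89, 1.42 and 1.1 CPM in OE greenhouse, and 48.7, 79.1 and 74.9 CPM in WT sunlight and 6.43, 6.33 and 10.1 CPM in WT greenhouse. Its log2 changes were 2.57 ± 0.40 in OE (SE, limma adjusted p = 0.00872) and 3.09 ± 0.28 in WT (SE, limma adjusted p = 0.000758), so its OE level was 13.2% of WT in sunlight and 19.3% in the greenhouse. Potra000971g08018 changed by 1.63 ± 0.40 in OE and 1.06 ± 0.16 in WT (SE, limma adjusted p = 0.0399 and 0.0142). Potra002435g18478 changed by 2.18 ± 0.55 in OE and 1.67 ± 0.25 in WT (SE, limma adjusted p = 0.0445 and 0.0142). A call in one genotype and not in the other does not show a difference between them.

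**Figure D4:**
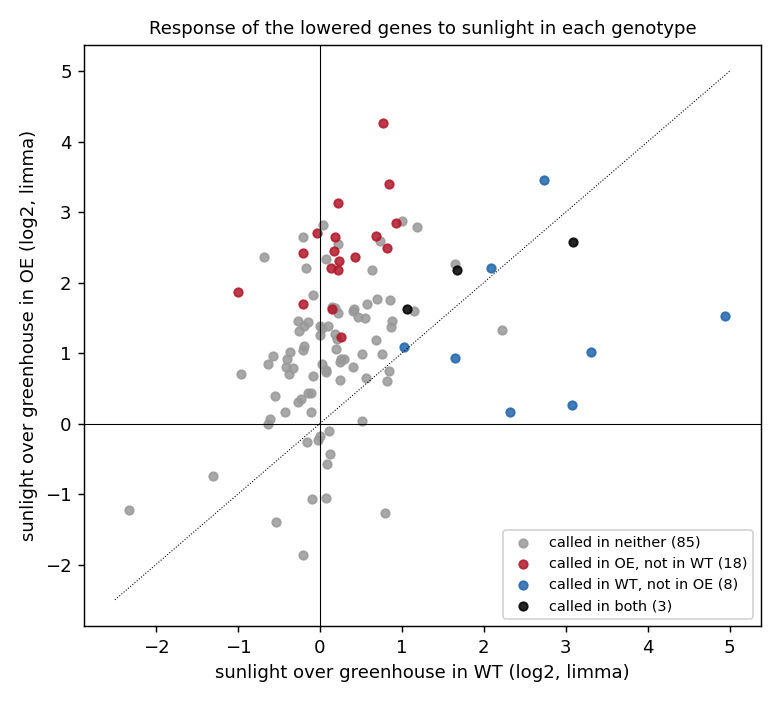
Change in sunlight over greenhouse (log2, limma) of the 114 genes in WT (horizontal axis) and in OE (vertical axis), with colours for the genotype in which the change passed adjusted p under 0.05. The dotted line marks equal change. Most points lie above 0 on the OE axis, with a median of 1.27, and spread on both sides of 0 on the WT axis, with a median of 0.17.

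The difference between the OE effects in sunlight and in the greenhouse was tested directly. No gene of the 114 and none of all 22959 (0%) passed limma adjusted p under 0.05, and the smallest adjusted p was 0.557. At an unadjusted p under 0.05 there were 36 of the 114, 32 of them positive and 4 negative, where 6% of all tested genes reached it. A positive value means that OE lay less far below WT in sunlight. The fitted difference was positive for 93 of the 114, with a median of 0.98, against -0.01 over all tested genes and 0.23 over the 257 less strongly lowered genes. The median was 0.69 without WT sunlight 6 and 1.21 without WT sunlight 4. Over the 79 genes with enough counts in OE, 66 were positive with a median of 0.97. Both effects had been used to choose the genes, so these signs and medians describe the 114 and support nothing further. With OE greenhouse 3 and WT greenhouse 5 both left out the median was 0.83, and 0 genes of the 114 passed. With library totals as the scaling the median of all tested genes was -0.25 and that of the 114 was 0.75.

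The smallest unadjusted p belonged to Potra001309g11258, with a difference of 2.63 ± 0.39 (SE, limma unadjusted p = 2.43e-05, adjusted p = 0.557). Potra003988g24019 had a difference of 1.96 ± 0.33 (SE, limma adjusted p = 0.646). Potra002442g18517 had one of 2.87 ± 0.53 (SE, limma adjusted p = 0.786), with 4.15, 14.3 and 10.7 CPM in OE sunlight against 94.2, 61 and 90.6 CPM in WT sunlight, and 2.01, 4.8 and 2.1 CPM in OE greenhouse against 167, 155 and 160 CPM in WT greenhouse. Its OE and WT levels came nearer to each other in sunlight from both sides. The 4 negative ones were Potra001727g14056 at -3.42 ± 0.55, Potra000959g07878 at -2.81 ± 0.53, Potra001988g15626 at -2.15 ± 0.51 and Potra194092g28921 at -2.30 ± 1.04 (SE, limma adjusted p = 0.613, 0.786, 0.818 and 0.818), the last chosen after its values were seen. Without WT sunlight 2, Potra000959g07878 passed, at -3.38 ± 0.29 (SE, limma adjusted p = 0.0057), and it was the single gene of all tested that did.

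The number called in OE grew with level among the 114 and among all tested genes. Split by mean level over the 12 libraries into 3 sets of 38 genes, 1 of the low set rose in OE by the limma call, 5 of the middle set and 15 of the high set. Of all tested genes in the same ranges of level, 1.26%, 2.55% and 5.53% rose in OE. Among the 38 genes of the low, middle and high sets, the mean OE level was higher in sunlight for 30, 35 and 33. Their median log2 changes were 0.98, 1.27 and 1.63. The same values over all tested genes in these ranges were not taken. The low set spans 1.04 to 6.93 CPM, and 11 of its 38 genes had enough counts in OE to pass the filter there, against 31 in the middle set and 37 in the high set.

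The 114 genes varied together among WT plants. The rule set each WT library against the OE libraries, but did not use the order of the WT libraries among themselves. WT sunlight 6 was the lowest of its group for 88 of the 114, where it was lowest for 33.1% of all tested genes, and WT greenhouse 3 for 89, where it was lowest for 28.5%. Both held for 73 of the 114 (64%), for 64 of the 257 less strongly lowered genes (24.9%) and for 9.56% of all tested genes. Relative to the mean of the other WT libraries of the group, the median gene of the 114 stood at 0.633 in WT sunlight 6 and at 0.668 in WT greenhouse 3, while the median of all tested genes was 0.992 and 0.994. In OE, OE sunlight 4 was the lowest of its group for 84 of the 114, at a median of 0.723, where it was lowest for 36.5% of all tested genes. The share of reads outside genes was 7.13% in WT sunlight 6, 16.4% in WT greenhouse 3 and 8.47% in OE sunlight 4, and its part in these levels was not tested.

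**Figure D5:**
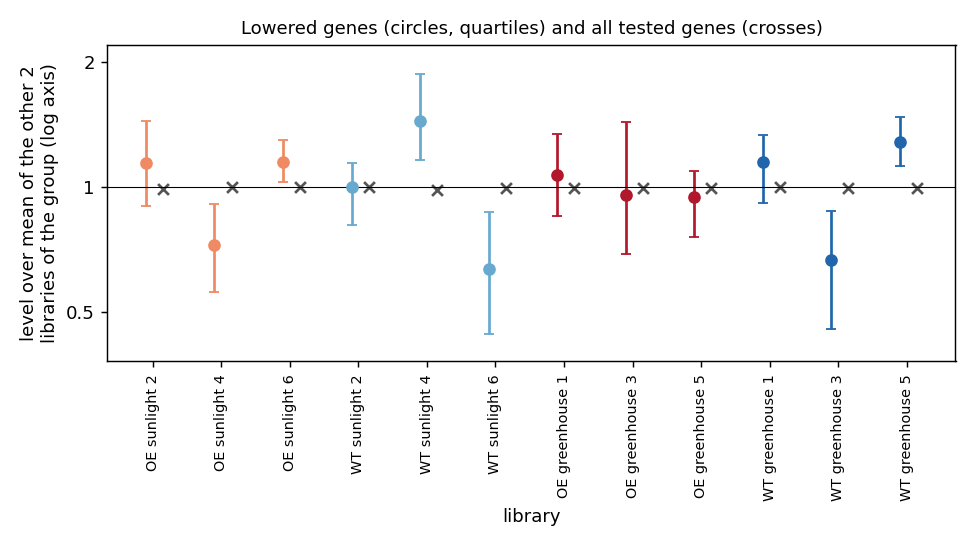
Level in each library relative to the mean of the other 2 libraries of its group (log axis, computed with 0.5 CPM added). Circles are the median of the 114 genes with bars over the quartiles, and crosses are the median of all tested genes. WT sunlight 6, WT greenhouse 3 and OE sunlight 4 stand at 0.633, 0.668 and 0.723, while the crosses stay between 0.98 and 1.

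The spread among WT plants was large for these genes. For the 82 of them with at least 10 CPM in WT, the median SD of log2 level was 0.59 within WT groups, against 0.17 over the 12483 tested genes at that level. Within OE groups it was 0.44. The OE levels of these genes are much lower and no other genes were measured beside them, so the 2 genotypes are not compared in spread. The largest SD within WT groups was that of Potra007587g25997, at 1.0. Its OE levels were 23.3, 6.55 and 17.2 CPM in sunlight and 10.4, 5.16 and 6.92 CPM in the greenhouse, against WT levels of 195, 261 and 68.1 CPM in sunlight and 128, 65.2 and 255 CPM in the greenhouse. Potra002126g16486 and Potra001790g14531 followed at 0.99 and 0.97. The smallest were those of Potra001309g11258 at 0.11, Potra000971g08018 at 0.14 and Potra002287g17522 at 0.15. The OE levels of Potra002287g17522, 1.28, 0.328 and 1.35 CPM in sunlight and 0.126, 1.07 and 0.239 CPM in the greenhouse, overlapped between conditions. Its WT levels were 33, 37.3 and 32.8 CPM in sunlight and 23.9, 23.3 and 29.4 CPM in the greenhouse.

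Most of the genes stood alone in the numbering of the gene IDs, in which the part before g groups genes. For 102 of the 114 no other gene of the set had the same first part, and the other 12 formed 6 pairs. Potra002448g18542 and Potra002448g18543 have consecutive numbers. Potra002448g18543 had 24.7, 13.1 and 21.2 CPM in OE sunlight, against 457, 657 and 269 CPM in WT sunlight, and 10.3, 7.92 and 6.87 CPM in OE greenhouse, against 515, 215 and 489 CPM in WT greenhouse. Of the other genes in this group of 4 IDs, Potra002448g18545 differed by -0.20 in sunlight and 0.02 in the greenhouse (log2, OE minus WT), and Potra002448g18544 by 0.62 and 1.56 at levels under 3 CPM. The low level was thus shared by 2 of 4 neighbouring IDs and not by the other 2.

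Potra001759g14312 and Potra001759g14313 are also consecutive, in another group of 4 IDs. Potra001759g14312 had 3.03, 1.86 and 2.28 CPM in OE sunlight, against 17.1, 25.9 and 18.7 CPM in WT sunlight, and 2.58, 1.69 and 1.91 CPM in OE greenhouse, against 15.8, 25.5 and 25.1 CPM in WT greenhouse. Potra001759g14313 had 7.02, 3.93 and 5.55 CPM in OE sunlight, against 34, 36.2 and 26 CPM in WT sunlight, and 3.08, 1.96 and 1.05 CPM in OE greenhouse, against 20.4, 27.5 and 35.1 CPM in WT greenhouse. In these 2 genes WT greenhouse 1, not WT greenhouse 3, was the lowest library of its group. Potra004359g24848 and Potra004359g24851, in a further group of 4, averaged 0.433 and 0.159 CPM in OE sunlight against 16.3 and 3.5 CPM in WT sunlight, and 0.0506 and 0.0875 CPM in OE greenhouse against 16 and 2.58 CPM in WT greenhouse. Potra000520g03502 and Potra000520g03504 had close numbers in a group of 51 IDs, with mean differences of -2.05 and -3.11. The remaining pairs lay farther apart, also in larger groups of IDs. Potra002555g19240 and Potra002555g19253, among 26 IDs, had mean differences of -3.94 and -2.39, and Potra002011g15769 and Potra002011g15785, among 23, of -2.12 and -3.60. Whether paired genes have similar sequences was not tested, and reads that align to near-identical copies were set apart from the counts, so levels of such copies are uncertain.

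The genes on either side of the threshold had nearly the same mean difference, though not the same levels by group. Just inside lay Potra001768g14376 at -2.0, Potra174365g27716 at -2.03 and Potra000583g04349 at -2.04. Just outside lay Potra001768g14372 at -1.99, Potra195336g29036 at -1.98 and Potra002067g16121 at -1.98. The genes nearest the threshold on either side, Potra001768g14376 and Potra001768g14372, share the first part of their ID. Potra001768g14376 had 0.638, 0.546 and 0.621 CPM in OE sunlight, against 6.01, 14.8 and 2.94 CPM in WT sunlight, and 3.84, 1.51 and 2 CPM in OE greenhouse, against 6.31, 4.03 and 11 CPM in WT greenhouse. Potra001768g14372 had 1.76, 0.983 and 2.21 CPM in OE sunlight, against 15.1, 37.1 and 14.6 CPM in WT sunlight, and 0.126, 0 and 0.143 CPM in OE greenhouse, against 0.243, 0.806 and 0.354 CPM in WT greenhouse. In the second gene both greenhouse groups had few counts, 5 in OE and 14 in WT over the 3 libraries.

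Separate lists were chosen in one condition alone and tested in the other. They share most of their genes with the 114, which were chosen in both conditions, so these tests speak of the separate lists and give no independent support for the 114. In a fit of 6 libraries a gene nearly absent in OE could pass the filter through its WT level alone. Such a gene can hardly be other than lower in OE, and how many passed in that way was not counted. By a difference of -2 or less with no overlap in the 6 greenhouse libraries alone, 138 genes were chosen, of which 102 are among the 114. In a fit of the 6 sunlight libraries alone, 91 of the 135 genes that could be tested were lower in OE at limma adjusted p under 0.05, or 67.4%, and none was higher. Of all 22251 genes tested there 0.809% were lower. Over the 135 genes the log2 fold change had a median of -3.10, with 133 below 0. In the other direction 124 genes were chosen in sunlight alone, most of them among the 114, and 93 of the 117 tested were lower in OE in the greenhouse, or 79.5%, where 0.792% of all 22099 tested genes were lower. Their median log2 fold change was -4.45 and all 117 were below 0.

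These counts were lower with a library left out of the test, except that 99 were called in the greenhouse without OE greenhouse 3. Of the genes chosen in the greenhouse, 60, 52 and 39 were called in sunlight without OE sunlight 2, 4 and 6, and 54 without WT sunlight 2. Of the genes chosen in sunlight, 50 of 88, 60 of 88 and 36 of 77 tested were called in the greenhouse without WT greenhouse 1, 3 and 5. That lists chosen in each condition overlap was already known from earlier results of these data.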

How the data were processed

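RNA-seq libraries of 12 poplar plants in 4 groups of 3 were analysed from gene counts. Per the submitters' processing notes TopHat2 2.1.1, Cufflinks and HTSeq 0.6.1 were used, without a stated role. No genome build, annotation or strand setting is stated. The authors deposited raw read counts per gene, as the values show (whole, 0 or above, with differing totals). The unit was recorded as "other", because the automatic reading of the files could not read the count column, and count-model tools were therefore not used. The 5 summary entries per file were left out. The share of reads aligned to more than 1 place was between 3.73% and 5.8%, and that of reads ambiguous between genes between 3.99% and 6.59%.

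Counts were scaled by TMM (30% and 5% trims) computed on genes that passed a filter. It asked for 0.69 CPM, equal to 10 counts in a library of median size, in 3 or more libraries, and for 15 or more counts in total, which left 22959 genes. These were fitted with limma 3.58.1 in R 4.3.3 (voom weights, 1 mean per group, robust empirical Bayes) over all 12 libraries, with Benjamini-Hochberg adjustment over all tested genes. Fits within a condition used its 6 libraries alone, scaled and filtered on their own. Fold changes with SE come from limma, and differences between OE and WT are of mean log2(CPM + 0.5), which understates the change of low genes. The fit and the rule were tested on simulated data. Every replicate pair differed beyond sampling noise, with a chi-square of 12 to 70.3 per degree of freedom.

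The 114 genes and the tests were chosen with earlier results of these data known. Genes are named by rule: the 10 largest mean differences, the 8 highest WT and 4 highest OE levels, the 4 smallest adjusted p for sunlight in each genotype and direction and the 4 smallest p for the difference between effects, the 3 on either side of the threshold, 5 groups of shared IDs, and the 3 largest and smallest spreads in WT. Genes that rose in both genotypes, those with at most 3 counts and those in opposite directions were named beyond the rule. So was the pair Potra000520g03502 and Potra000520g03504. Gene lists by function were not applied, since no names of these IDs were used here. One subset, the genes with enough counts in OE, was chosen after seeing the data. Alternatives were other scalings, pseudocounts, floors and filters, a non-robust fit, a fit of just the compared libraries, a replicate block, and leaving out single libraries or both that stood apart.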

Additional observations from a re-analysis of the deposited data

Results flagged for a closer look

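In Potra003667g22376 every sunlight library lay above every greenhouse library in OE and below it in WT. It had 4.95, 6.77 and 6.66 CPM in OE sunlight and 4.53, 2.22 and 3.29 CPM in OE greenhouse, and 21.6, 23.8 and 18.8 CPM in WT sunlight and 25.4, 26.6 and 32 CPM in WT greenhouse. The difference between its OE effects was 1.32 ± 0.30 (SE, log2), which did not pass the correction (limma adjusted p = 0.818). It was the 1 gene of the 114 with this pattern, and groups of 3 were not tested for single extreme libraries. Of all tested genes, 13.8% had this order in OE and 11.7% had that in WT. The share with both was not counted, so 1 of 114 is not read as unusual.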

How the results depend on the processing

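Which genes belong to the set depended little on scaling and on single libraries and more on the handling of low levels. The number was 114 with median-of-ratios scaling, 110 with library totals, 132 and 80 with pseudocounts of 0.1 and 2, 89 with a floor of 10 CPM, and between 109 and 121 with any 1 library left out. Library totals took the number that rose in WT to 18 and the summed OE level in the greenhouse to 4.68% of WT, which was between 3.3% and 4.63% with 1 library left out. With the compared libraries alone 6 genes rose and 1 fell in WT, and 4 rose in OE, where fewer samples entered the fit. Without both OE greenhouse 3 and WT greenhouse 5, 12 rose in OE. With single libraries left out, between 3 and 15 rose and between 0 and 1 fell in WT, between 4 and 22 rose in OE, and between 0 and 1 passed for the difference between effects. The medians over the set then lay between -0.08 and 0.46 in WT and between 0.69 and 1.21 for that difference. Genes chosen in the greenhouse and called in sunlight numbered between 39 and 83, and those chosen in sunlight and called in the greenhouse between 36 and 99. The cause of these shifts was not tested.

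Replicate numbers are shared by OE and WT of a condition, and deviations of same-numbered libraries correlated between -0.50 and 0.07 over genes, so the numbers were not taken as pairs. With a replicate block, 0 genes passed for the difference between effects, its median was 0.97, and the calls across conditions were 64 and 92. Sunlight and greenhouse libraries share no number, so no block could be fitted there. Depth limits the genes under a few CPM in OE, where 1 count is a large part of a level.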
